A study of Homo sapiens with 9 samples.

Results

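The 10 genes described here encode S100 calcium-binding proteins, and they were taken by name from the gene table: S100A1, S100A2, S100A4, S100A6, S100A10, S100A11, S100A13, S100A16, S100B and S100P. They are 10 of the 26475 gene symbols in the table, and all 10 were among the 16417 genes that passed the filter on low counts. The study asked how the transcriptome of melanoma cells responds to TP-472, a compound that inhibits BRD9 and BRD7, which are bromodomain proteins of SWI/SNF chromatin remodelers. RNA was sequenced from A375 cells, a human BRAF-mutant melanoma line, in 3 groups of 3 libraries, all at 24 h: a group given the vehicle DMSO, a group given TP-472 at 5 µM and a group given TP-472 at 10 µM. All libraries come from the same cell line, so the groups describe that line only. The design text calls the 3 libraries of a group biological replicates but does not say whether they came from separate cultures, and the p-values measure the spread between these libraries.

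S100 proteins are small, mostly dimeric proteins with paired EF-hands, the helix-loop-helix motif that holds calcium. When calcium binds, most of them open a surface that grips a target protein, such as an annexin, a myosin or another enzyme or cytoskeletal partner. S100B is used in pathology as a marker of melanocytic tumors, and S100A4 and S100A6 are known from studies of melanoma and metastasis. S100A10 is an exception in that its EF-hands no longer bind calcium, and it holds annexin A2 in a complex at the plasma membrane.

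Of the 10 genes, 8 lie on chromosome 1 between 151982915 and 153632039 (GRCh38, GENCODE 29), in the S100 cluster of band 1q21. S100B lies on chromosome 21 at 46598962 to 46605208 on the minus strand, and S100P on chromosome 4 at 6693069 to 6697170 on the plus strand. Within the cluster, S100A6 (153534599 to 153536244), S100A10 (151982915 to 151994390), S100A11 (152032506 to 152047907) and S100A16 (153606886 to 153613145) are on the minus strand, and S100A1 (153627926 to 153632039) is on the plus strand. S100A1 and S100A13 overlap on opposite strands and share 235 bp of exon, which is 7.76% of the exonic length of S100A1 and 10.6% of that of S100A13. S100A1 shares a further 320 bp with the antisense gene AL162258.2, and S100A6 shares 23 bp with the antisense gene BX470102.1. S100A13 also shares 536 bp, or 24.2% of its exonic length, with AL162258.1 on its own strand. The libraries keep the strand of the RNA, but the sources used here do not say whether the counting used it, so S100A1, S100A13 and these neighbors are uncertain to that extent.

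The promoters shown are those of the 4 genes whose 6 TP-472 libraries all lay above the 3 DMSO libraries, S100A6, S100A10, S100A11 and S100A16, and of the gene whose 6 TP-472 libraries all lay below them, S100A1, patterns that 14.9% and 18.3% of all genes tested showed. Each runs from 250 bases before to 50 bases after the RefSeq start of the gene on GRCh38.p14, 5′ to 3′ on the strand of the gene: S100A6 at chr1:153535942-153536241, S100A10 at chr1:151993810-151994109, S100A11 at chr1:152036955-152037254, S100A16 at chr1:153613088-153613387 and S100A1 at chr1:153628184-153628483. Capitals mark matches to the motifs searched.
S100A6: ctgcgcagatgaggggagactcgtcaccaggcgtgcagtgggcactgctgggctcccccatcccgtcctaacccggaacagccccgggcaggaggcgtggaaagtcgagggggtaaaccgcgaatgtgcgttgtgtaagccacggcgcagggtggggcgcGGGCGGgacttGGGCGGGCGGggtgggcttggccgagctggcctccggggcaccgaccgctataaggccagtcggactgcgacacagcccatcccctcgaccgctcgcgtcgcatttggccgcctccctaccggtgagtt
S100A10: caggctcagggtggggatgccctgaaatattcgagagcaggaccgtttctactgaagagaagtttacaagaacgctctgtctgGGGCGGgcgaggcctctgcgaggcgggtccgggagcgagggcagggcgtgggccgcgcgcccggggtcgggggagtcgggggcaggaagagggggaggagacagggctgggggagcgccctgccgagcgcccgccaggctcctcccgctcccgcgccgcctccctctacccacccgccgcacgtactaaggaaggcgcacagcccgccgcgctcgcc
S100A11: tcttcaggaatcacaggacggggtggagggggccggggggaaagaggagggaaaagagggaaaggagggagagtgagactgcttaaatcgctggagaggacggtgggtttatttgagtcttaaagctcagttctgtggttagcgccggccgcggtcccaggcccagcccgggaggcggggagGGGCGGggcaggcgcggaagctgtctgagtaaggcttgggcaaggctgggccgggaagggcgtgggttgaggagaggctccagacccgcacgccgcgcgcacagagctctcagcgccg
S100A16: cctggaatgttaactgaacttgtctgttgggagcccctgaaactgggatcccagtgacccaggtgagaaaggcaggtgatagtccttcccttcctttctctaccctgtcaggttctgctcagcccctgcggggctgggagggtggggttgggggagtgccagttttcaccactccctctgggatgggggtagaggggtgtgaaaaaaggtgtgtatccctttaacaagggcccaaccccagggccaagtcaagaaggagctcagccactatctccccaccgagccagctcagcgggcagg
S100A1: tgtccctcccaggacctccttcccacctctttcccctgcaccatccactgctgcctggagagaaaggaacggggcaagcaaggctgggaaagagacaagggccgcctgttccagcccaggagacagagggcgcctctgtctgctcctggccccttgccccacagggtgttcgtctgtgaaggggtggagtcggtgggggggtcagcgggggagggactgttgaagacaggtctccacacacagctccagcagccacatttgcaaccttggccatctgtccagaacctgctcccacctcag
The motifs were TATAAA, the AP-1 site TGANTCA, the GC box GGGCGG, the CCAAT box and the cyclic AMP response element TGACGTCA, each on both strands. GC boxes were found in the windows of S100A6 (3 matches, of which 2 overlap), S100A10 (1 match), S100A11 (1 match) and S100A13 (1 match), against 44.6% of all 27305 promoters of the same length. TATAAA stood in the windows of S100A4 and S100P (12% of all promoters) and TGANTCA in that of S100A2 (7.76%). None of these letters stood in the windows of S100A16 and S100A1, and S100B has no entry in the table of promoters.

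The 9 libraries held between 42483091 and 51298130 counts. The share of counts on ribosomal RNA genes ran from 8.79% to 10.9% in the vehicle group, with 10.6% to 16.6% for the lower dose and 8.20% to 19.9% for the higher. Levels are given in CPM, the counts of a gene scaled to the depth of its library. Of 7 melanocyte lineage markers SOX10 and MITF were present, PMEL lay near 1 to 3 CPM, MLANA, DCT and TYRP1 were near 0 and TYR was at 0 in every library. One library stood apart, library 1 at 10 µM. Against the mean of the other two 10 µM libraries on the log2(CPM + 1) scale, the bin with the shortest transcripts, of 10 equal bins of genes by length, had a median log2 ratio of 0.51 and the bin with the longest had one of -0.53.

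All 10 S100 genes were higher in library 1 than in the mean of libraries 2 and 3 at 10 µM, by a median of 0.65 and a range of 0.03 to 0.78 on the log2(CPM + 1) scale, where all genes had a median of -6.2e-05. The added 1 shrinks the ratios of genes at low CPM. In CPM alone, S100A1 in library 1 was 2.38 times that mean, and S100A2 was 1.73 times. S100 transcripts are short. The longest annotated transcript of the members has a median of 1072 bp and runs from 594 to 2621 bp, against a median of 3497 bp over the genes tested. In the shortest bin (to 1601 bp, median 0.51, quartiles 0.27 and 0.67), S100A2 and S100A6 stood at 0.78 and 0.76. In the same bin S100A10 and S100P stood at 0.51 and 0.03. S100A13 and S100A1, whose longest annotated transcripts are longer, stood at 0.67 and 0.66, where the medians of their bins were 0.23 and 0.13. The length of the transcripts expressed in these cells was not measured, so their bins may not be the right ones. Whether transcript length accounts for the difference of library 1 was not tested. With a trend on transcript length and GC content removed from every library, the median log2 fold change of the members at 10 µM against DMSO was 0.19, in place of 0.35. The 10 µM tests of genes named below are given with and without library 1. Leaving it out keeps 2 libraries at 10 µM, and it was singled out because it stood apart from them. Its removal lowers the spread within the group, so errors and p-values without library 1 may be too small. As the estimate of spread is shared, this holds for every comparison in that fit. Those p-values are therefore not stronger evidence than the ones with all libraries.

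**Figure D1:**
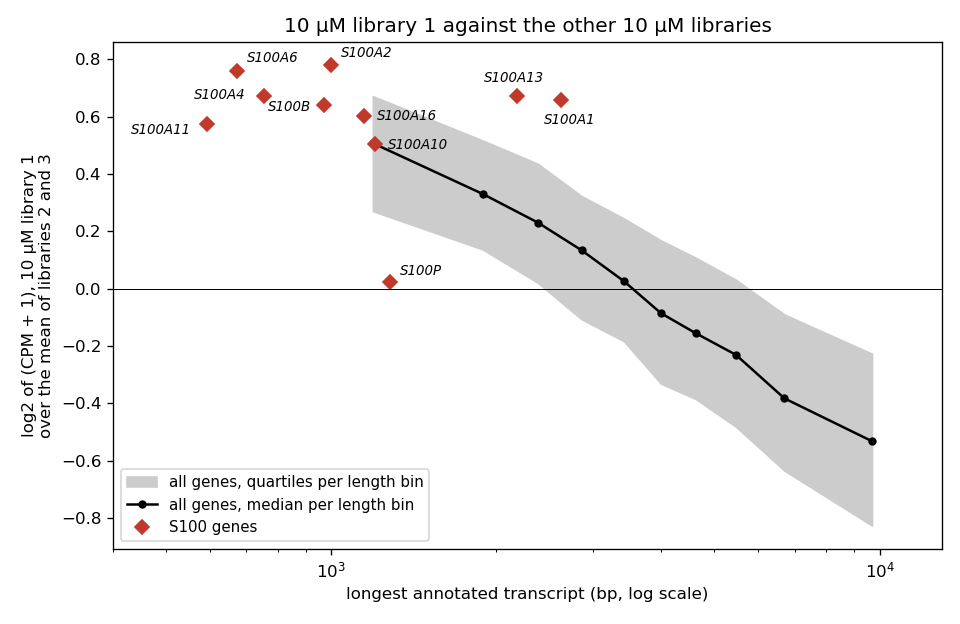
Median log2 ratio of library 1 at 10 µM to the mean of libraries 2 and 3 at 10 µM (y axis, on the log2(CPM + 1) scale) against the length of the longest annotated transcript (x axis, log scale, bp), with a line for the medians of 10 length bins of all genes, a band for their quartiles and a diamond for each of the 10 S100 genes. The medians fall from 0.51 in the shortest bin to -0.53 in the longest, and all 10 S100 genes lie above 0.

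The S100 genes spanned about 3 orders of magnitude in A375 cells. Per kilobase of exon, S100A6 was the highest under DMSO at 1077 ± 45.3 CPM per kb (SD, n = 3). S100A10 followed at 268 CPM per kb (260 to 276), then S100A16 at 251 (244 to 254) and S100A11 at 245 (240 to 247), and the ranges of the last pair overlap while that of S100A10 lies above both. S100A4 stood at 186 CPM per kb (181 to 189). S100A2 (31.6 to 39.0 CPM per kb) and S100A13 (32.0 to 34.3) overlapped, and S100B was lower still at 4.90 CPM per kb (4.63 to 5.42). S100A1 (0.990 to 1.06 CPM per kb) and S100P (0.683 to 1.21) overlapped at the bottom of the order. Their raw counts were 33 to 156 per library for S100A1 and 37 to 112 for S100P, so these genes carry the widest counting error, and S100B had 277 to 454 counts.

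**Figure D2:**
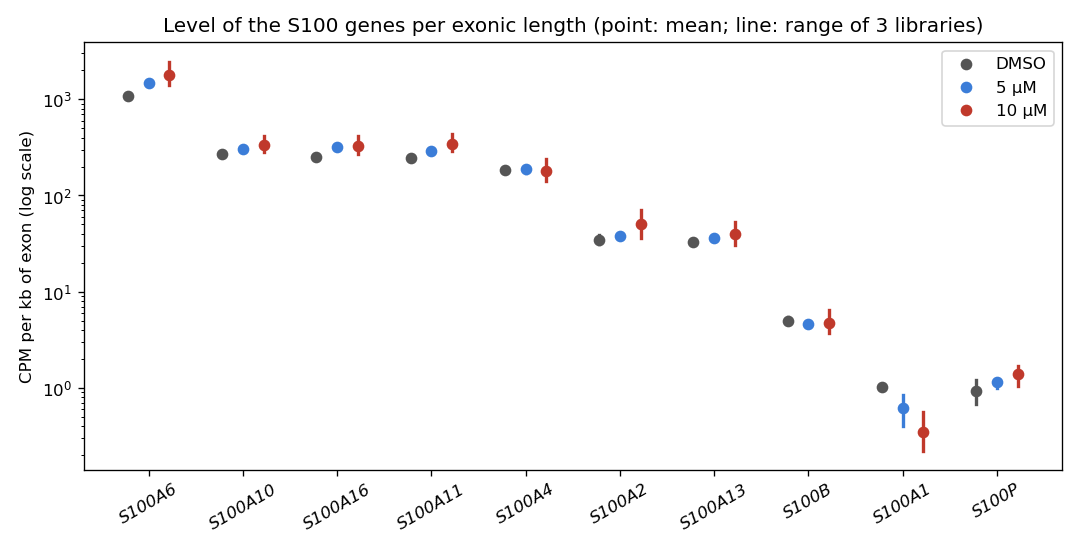
Level of each S100 gene per kilobase of exon (CPM per kb, log axis) in the 3 groups, as the mean (point) and range (line) of 3 libraries, with the genes in order of their DMSO mean. S100A6 stands near 1077 CPM per kb under DMSO and S100A1 and S100P near 1.

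Together the 10 genes took 2312 to 2443 CPM in the DMSO libraries, 2840 to 3107 CPM at 5 µM, and 4522, 2802 and 2852 CPM in libraries 1, 2 and 3 at 10 µM. S100A6 made up 43.1% to 44.5% of their counts under DMSO. Its share was 46.7% to 49.4% with the lower dose and 49.0% to 52.7% with the higher. The sums at both doses lay above all DMSO sums, and in these bulk libraries a change in the number of expressing cells and a change in RNA per cell cannot be told apart. Outside library 1 the 10 µM sums did not lie above those at 5 µM.

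S100A6 (calcyclin), which binds the ubiquitin ligase adaptor CACYBP and annexins, had the largest fold change of the members called higher at 10 µM. Its levels were 1079, 1063 and 996 CPM in the DMSO libraries, 1480, 1328 and 1534 CPM at 5 µM, and 2382, 1374 and 1438 CPM at 10 µM. Every TP-472 library was above every DMSO library, and the 10 µM libraries apart from library 1 lay within the 5 µM range. At 10 µM the log2 fold change against DMSO was 0.73 (SE 0.18, adjusted p = 0.0114), a 1.65-fold increase, by the quasi-likelihood test of edgeR. Without library 1, with 2 libraries left at 10 µM, it was 0.42 (SE 0.05, adjusted p = 3.11e-06). The same test gave every adjusted p here, with p-values adjusted after Benjamini and Hochberg over all genes tested in the fit. These were 16417 genes with all libraries and 16745 without library 1 at 10 µM.

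S100A11 (calgizzarin), a partner of annexin A1 that is known from membrane repair, was the other member called higher at 10 µM. It stood at 163, 168 and 168 CPM under DMSO, 197, 191 and 202 CPM at 5 µM, and 300, 204 and 198 CPM at 10 µM. The 6 TP-472 libraries were all above the DMSO libraries. The log2 fold change at 10 µM was 0.49 (SE 0.14, adjusted p = 0.0212), and 0.27 (SE 0.04, adjusted p = 4.01e-05) without library 1. The call was lost when DMSO library 1, 2 or 3 was left out, with adjusted p = 0.0742, 0.0647 and 0.0660, and when the 10 µM and DMSO groups were fitted alone, with adjusted p = 0.0615; in that fit 12.7% of all genes rose and 14.4% fell.

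S100A1, which regulates calcium handling in heart and skeletal muscle, was the only member called lower with all libraries. Its levels were 3.00, 3.21 and 3.12 CPM under DMSO, 1.88, 2.58 and 1.21 CPM at 5 µM, and 1.71, 0.769 and 0.672 CPM at 10 µM. All 6 TP-472 libraries were below the DMSO libraries, and the 2 doses overlapped. The log2 fold change at 10 µM was -1.56 (SE 0.40, adjusted p = 0.0129), and -2.11 (SE 0.34, adjusted p = 0.000101) without library 1, in which it was 2.38 times the mean of the other two.

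The other members of the 10 were not called at 10 µM with all libraries. S100A16, a widely expressed member, had 433, 416 and 430 CPM under DMSO, 540, 551 and 528 CPM at 5 µM, and 714, 479 and 462 CPM at 10 µM. S100A10 had 426, 413 and 402 CPM under DMSO, 478, 448 and 492 CPM at 5 µM, and 643, 467 and 438 CPM at 10 µM. For both genes all TP-472 libraries lay above all DMSO libraries. The log2 fold changes at 10 µM were 0.37 (SE 0.14, adjusted p = 0.0689) for S100A16 and 0.32 (SE 0.13, adjusted p = 0.0785) for S100A10, and without library 1 they were smaller but past the threshold, at 0.14 (adjusted p = 0.00272) and 0.13 (adjusted p = 0.0221).

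S100A4 (metastasin), which binds non-muscle myosin and is known from cell motility and metastasis, had 193, 194 and 186 CPM under DMSO, 194, 177 and 202 CPM at 5 µM, and 243, 146 and 158 CPM at 10 µM. Library 1 was above all DMSO libraries and the other two 10 µM libraries were below them. The log2 fold change at 10 µM was -0.07 (SE 0.16, adjusted p = 0.792) with all libraries and -0.33 (SE 0.05, adjusted p = 0.000103) without library 1. Each library's deviation from the gene means on the log2(CPM + 1) scale was also fitted on transcript length and GC content. With that trend removed from all 9 libraries, the change of S100A4 was -0.29 (adjusted p = 0.0193). Any part of a treatment effect that follows length or GC content is removed with that trend.

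S100A2, best known from the nucleus of epithelial cells, had 61.2, 52.3 and 49.6 CPM under DMSO, 62.3, 57.0 and 59.6 CPM at 5 µM, and 110, 56.8 and 70.9 CPM at 10 µM, and the groups overlapped. Its log2 fold change at 10 µM was 0.54 (SE 0.20, adjusted p = 0.0618), and 0.23 (adjusted p = 0.0516) without library 1. S100A13, which takes part in the release of growth factors that lack a signal peptide, had 76.0, 71.3 and 70.9 CPM under DMSO, 82.5, 77.8 and 80.0 CPM at 5 µM, and 117, 67.0 and 78.7 CPM at 10 µM. Its log2 fold change at 10 µM was 0.27 (SE 0.17, adjusted p = 0.254), and -0.0020 (SE 0.06, adjusted p = 0.983) without library 1.

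S100B, the melanocytic marker, had 7.85, 6.71 and 6.71 CPM under DMSO, 6.29, 6.91 and 6.71 CPM at 5 µM, and 9.38, 5.33 and 5.97 CPM at 10 µM. The 3 groups overlapped, with a log2 fold change at 10 µM of -0.04 (SE 0.20, adjusted p = 0.900). Without library 1 it was -0.33 (SE 0.14, adjusted p = 0.0700), and both remaining 10 µM libraries were below all DMSO libraries. S100P, first described in placenta and a partner of ezrin, had 1.55, 1.11 and 0.875 CPM under DMSO, 1.27, 1.57 and 1.58 CPM at 5 µM, and 1.80, 2.15 and 1.34 CPM at 10 µM. It had a log2 fold change of 0.58 (SE 0.31, adjusted p = 0.183) at 10 µM and of 0.56 (SE 0.36, adjusted p = 0.213) without library 1, and its groups overlapped as well.

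**Figure D3:**
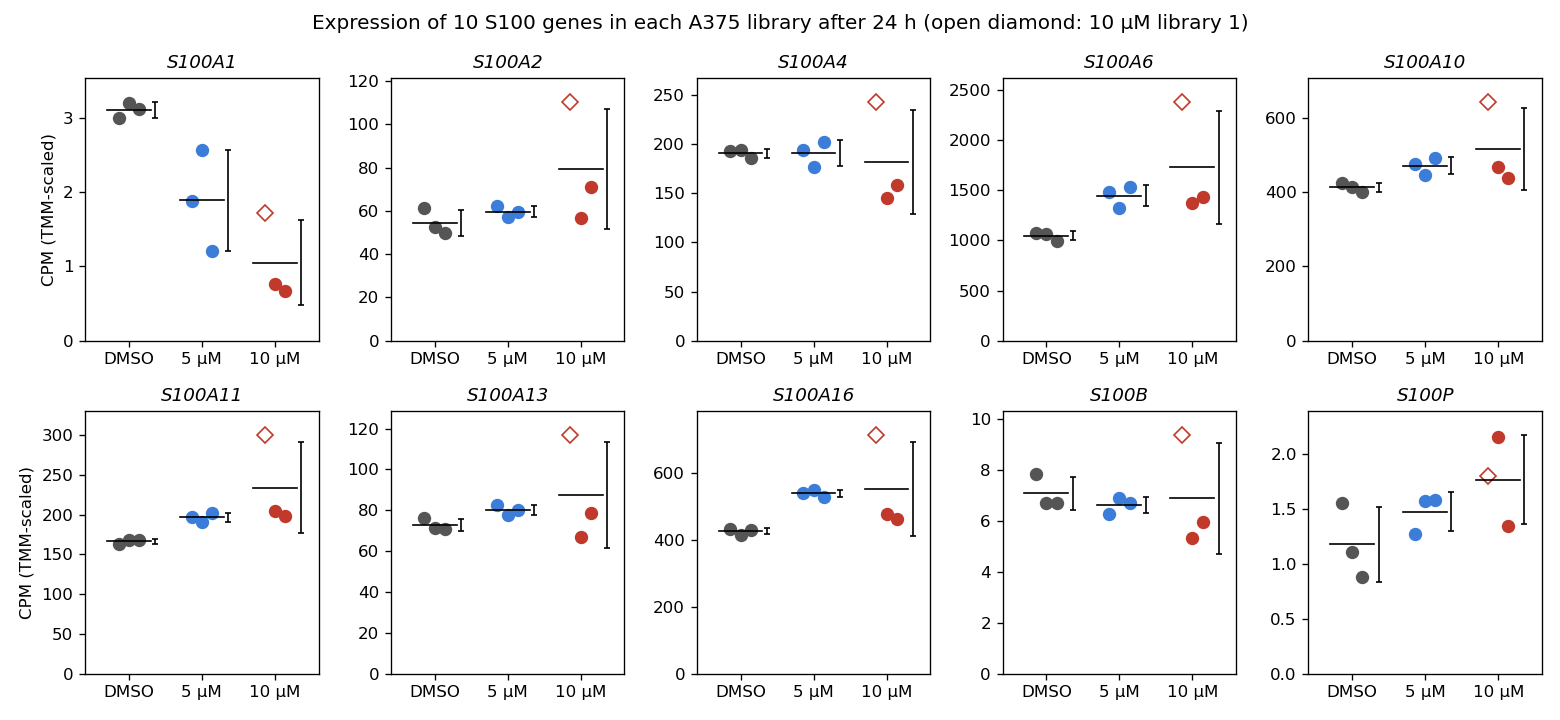
Level of each of the 10 S100 genes (CPM on library sizes scaled by TMM) in every library in the 3 groups. Horizontal lines are group means, bars beside them 1 SD, and the open diamond is library 1 at 10 µM. For S100A6, S100A10, S100A11 and S100A16 all TP-472 points lie above the DMSO points, for S100A1 they lie below, and library 1 is the highest 10 µM point for all of the genes except S100P.

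At 10 µM against DMSO, then, 2 of the 10 members rose and 1 fell, where 16.4% of all genes tested rose and 18.0% fell. Without library 1, 4 rose (S100A6, S100A10, S100A11, S100A16) and 2 fell (S100A1, S100A4), against 23.0% and 25.8% of all genes. The median log2 fold change of the members was 0.35 with all libraries and 0.13 without library 1, and that of all genes was 0.01 with all libraries. All 6 TP-472 libraries lay above the DMSO libraries for 4 members, as for 14.9% of all genes, and below them for 1 member, as for 18.3% of all genes.

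At 5 µM against DMSO no S100 gene passed the threshold in the fit of all 9 libraries, where 4.40% of all genes rose and 5.81% fell. By edgeR, 2 members had an unadjusted p under 0.05 and both were higher: S100A6, with a log2 fold change of 0.47 (SE 0.18, adjusted p = 0.138), and S100A16, with 0.34 (SE 0.14, adjusted p = 0.173). The share of all genes at that unadjusted threshold was not counted. DESeq2, limma-voom and edgeR's likelihood ratio test also called 0 members. S100A11 had a log2 fold change of 0.24 (SE 0.14), S100A10 of 0.19 (SE 0.13) and S100A1 of -0.72 (SE 0.39). The values of S100P, S100A2, S100A4 and S100B were 0.32, 0.13, 0.00 and -0.10. The median of the 10 members was 0.17, beside 0.01 for all genes.

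The 5 µM comparison does not contain the 10 µM libraries, but it shares the estimate of spread with them. Without library 1 at 10 µM the fold changes of the members were the same to 2 decimals, and the errors were smaller for all of them except S100P (SE 0.33 against 0.31). In that fit 4 members rose at 5 µM, against 16.5% of all genes, and 0 fell, against 17.6%: S100A6 (adjusted p = 9.02e-07), S100A16 (adjusted p = 4.65e-07), S100A11 (adjusted p = 9.01e-05) and S100A10 (adjusted p = 0.0012). When only the DMSO and 5 µM groups were fitted, S100A13 was called higher as well and S100A1 was called lower (adjusted p = 0.0387), against 19.3% of all genes higher and 20.7% lower. S100A13 had a log2 fold change of 0.14 at 5 µM, and its 5 µM libraries lay above its DMSO libraries, as did those of 23.7% of all genes.

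**Figure D4:**
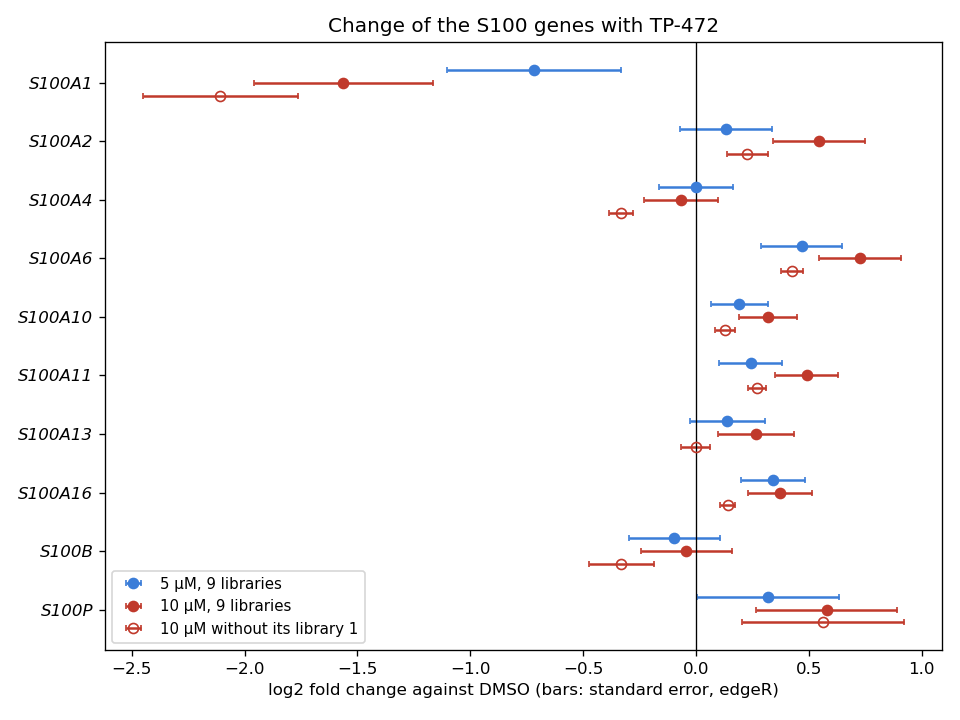
Log2 fold change of each S100 gene against DMSO at 5 µM and at 10 µM (bars show 1 SE), and at 10 µM with library 1 left out. At 10 µM the value for S100A6 is 0.73 with all libraries and 0.42 without library 1, and that for S100A4 is -0.07 and -0.33.

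Between the doses, 0 members were called by edgeR with all libraries, and 0 had an unadjusted p under 0.05, where 2.87% of all genes were higher at 10 µM than at 5 µM and 5.53% were lower. DESeq2, limma-voom and the likelihood ratio test also called 0 members at the adjusted threshold. At an unadjusted p under 0.05, DESeq2 and the likelihood ratio test each gave 1 higher and 1 lower member, and limma-voom 0 and 1. The shares of all genes at that unadjusted threshold were not counted. All 10 µM libraries lay above all 5 µM libraries for 0 members, as for 12.1% of all genes, and below them for 0 members, as for 16.2%. Both comparisons with DMSO share the DMSO libraries, and these also enter the filter, the scaling and the spread behind the comparison of doses. Without library 1, 0 members were higher and 3 were lower at 10 µM than at 5 µM, against 8.80% and 15.4% of all genes. The 3 were S100A1 with a log2 fold change of -1.39 (SE 0.34, adjusted p = 0.00711), S100A4 with -0.33 (SE 0.05, adjusted p = 0.000348) and S100A16 with -0.20 (SE 0.03, adjusted p = 0.000485). S100A6 differed between the doses by -0.04 (adjusted p = 0.580) in that fit.

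Among the 11 other S100 genes in a list of the family, 5 passed the filter. S100A3 is a cysteine-rich member known from the hair cuticle. Its annotated span (153547329 to 153549372) lies within that of S100A4 (153543613 to 153550136) on the same strand. S100A3 was called lower in all 3 comparisons with all libraries. It had 29.8, 26.6 and 23.5 CPM under DMSO, 17.1, 18.5 and 18.3 CPM at 5 µM, and 13.4, 11.3 and 9.78 CPM at 10 µM, and the 3 groups did not overlap. Its log2 fold change was -0.57 (SE 0.13, adjusted p = 0.0214) at 5 µM, -1.21 (SE 0.13, adjusted p = 9.59e-05) at 10 µM and -0.64 (SE 0.13, adjusted p = 0.0160) between the doses. Without library 1 the changes were -1.34 (adjusted p = 5.61e-08) at 10 µM and -0.77 (adjusted p = 8.47e-05) between the doses, and with only the 2 dose groups fitted the call between the doses was lost (-0.63, adjusted p = 0.0670). S100A5 had a log2 fold change of -0.90 (SE 0.36, adjusted p = 0.0765) at 10 µM. It was called lower without library 1 (-1.17, adjusted p = 0.0166) and with the length and GC trend removed (-1.15, adjusted p = 0.0185).

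S100A9, a subunit of calprotectin in myeloid cells and stressed epithelium, was almost without counts under DMSO, with 0, 0 and 1 counts. It had 18, 19 and 19 counts at 5 µM, and 184, 28 and 5 counts at 10 µM, so most of its 10 µM counts came from library 1. It passed the filter only through the TP-472 libraries, so its counts are given with no test. The other calprotectin subunit, S100A8, had 0 counts in each DMSO library, 11, 1 and 2 counts at 5 µM and 47, 0 and 9 counts at 10 µM and failed the filter. S100A14 and S100Z were not called at 10 µM (adjusted p = 0.306 and 0.977, and 0.203 and 0.866 without library 1).

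Summed levels of immune, keratinocyte and endothelial markers were higher in all TP-472 libraries than in all DMSO libraries, and those of fibroblast markers were lower at 10 µM. Of single genes tested, 14.9% had all 6 TP-472 libraries above the DMSO libraries. Of 5 immune markers, CD3E and MS4A1 were at 0 in every library, and the summed level, mainly of CD68 and LYZ, was 59.3 to 64.9 CPM under DMSO, against 89.3 to 89.6 CPM for 5 µM and 91.9 to 136 CPM for 10 µM. The 5 keratinocyte markers, of which KRT10 and KRT14 reached a mean of 1 CPM, summed to 49.4 to 56.7, 62.2 to 65.9 and 67.1 to 97.7 CPM in the same order. The 4 endothelial markers summed to 4.16 to 5.56, 5.67 to 9.35 and 10.3 to 16.3 CPM, and the 5 fibroblast markers to 6.24 to 7.42, 6.27 to 7.37 and 3.18 to 4.73 CPM. With all libraries at 10 µM, 1 of 2 tested immune, 1 of 3 keratinocyte and 1 of 4 endothelial markers rose. Of 4 fibroblast markers, 2 fell. At 5 µM 1 immune and 1 endothelial marker rose. Of all genes, 16.4% rose and 18.0% fell at 10 µM, and 4.40% and 5.81% at 5 µM. Without library 1 the 10 µM marker counts were the same, against 23.0% and 25.8% of all genes. The keratinocyte median log2 fold change at 10 µM was then -0.09 in place of 0.28. At 5 µM in that fit, 1 marker each of the immune, keratinocyte, fibroblast and endothelial lists rose. In addition 1 endothelial marker fell, against 16.5% and 17.6% of all genes. The part of any other cell type in the S100 values was not tested. The 7 melanocyte markers summed to 439 to 457, 440 to 452 and 393 to 438 CPM, and 0 of the 5 tested were called at either dose with all libraries (1 fell at 10 µM without library 1).

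S100 proteins act through partners, and of 20 partner genes in a list, all tested, 4 rose and 7 fell at 10 µM, with a median log2 fold change of -0.22, where 16.4% of all genes rose and 18.0% fell. At 5 µM, 2 rose and 3 fell, where 4.40% of all genes rose and 5.81% fell. Without library 1, 6 rose and 10 fell at 10 µM, with a median of -0.12, where 23.0% and 25.8% of all genes did. PLAT, the tissue plasminogen activator that the S100A10 and annexin A2 complex binds, had 340 ± 7.35 CPM in the DMSO group and rose to 564 ± 8.34 CPM with 5 µM (log2 fold change 0.73, adjusted p = 0.000154) and 524 ± 31.9 CPM at 10 µM (0.62, adjusted p = 8.36e-05; SD, n = 3), with 0.59 (adjusted p = 5.54e-09) at 10 µM without library 1. The plasminogen receptor gene PLGRKT rose at 10 µM by 0.86 (adjusted p = 0.000317), and ANXA6, an annexin, fell by 0.54 (adjusted p = 0.000316). Without library 1 these changes were 0.75 (adjusted p = 7.97e-06) for PLGRKT and -0.60 (adjusted p = 1.67e-08) for ANXA6.

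Of 18 tested genes among 20 other EF-hand genes, 5 rose and 5 fell at 10 µM, with a median of -0.10, and 2 rose and 2 fell at 5 µM, against the same shares of all genes (16.4% and 18.0% at 10 µM, 4.40% and 5.81% at 5 µM). Without library 1, 5 rose and 9 fell at 10 µM, with a median of -0.17, against 23.0% and 25.8% of all genes. CALB1, the calcium buffer calbindin, rose by 2.66 on the log2 scale (adjusted p = 8.07e-07), and EFHD2 fell by 0.73 (adjusted p = 0.000122). Without library 1 they were at 2.56 (adjusted p = 1.72e-11) and -0.82 (adjusted p = 4.18e-10). Of 10 neighbors of the cluster at 1q21 that are not S100 genes, 1 rose and 3 fell at 10 µM, against 16.4% and 18.0% of all genes. CHTOP, an mRNA export factor, rose by 0.40 (adjusted p = 0.00688). Among those that fell were INTS3 by 0.30 (adjusted p = 0.0100) and DENND4B by 0.35 (adjusted p = 0.0244). Without library 1, 1 rose and 4 fell, against 23.0% and 25.8% of all genes. CHTOP was then at 0.29 (adjusted p = 4.36e-05), INTS3 at -0.26 (adjusted p = 0.000346) and DENND4B at -0.23 (adjusted p = 0.000299). At 5 µM, 0 of these neighbors were called by edgeR with all libraries, against 4.40% of all genes higher and 5.81% lower. Without library 1, 1 neighbor rose and 1 fell at 5 µM, against 16.5% and 17.6% of all genes.

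The genes whose log2(CPM + 1) was most like that of S100A6 over the 9 libraries, out of 13678 tested genes that averaged 1 CPM or more, were NMT1 (Pearson r = 0.996), MRPL27 (r = 0.987) and GSS (r = 0.986). For S100A1 they were C4orf46 (r = 0.985), TMEM129 (r = 0.978) and LSM14B (r = 0.978). The 9 points of each correlation share their libraries, and library 1 at 10 µM is among them.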

How the data were processed

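Poly(A) selection with oligo-dT beads and strand-specific (dUTP) libraries are described in the labels, whereas the design text speaks of ribosomal RNA depletion. The deposited table holds RSEM expected counts for each gene symbol without scaling for depth; the submitters' processing notes name Bowtie2 2.1.0, RSEM 1.2.15 and hg38. The annotation behind the counts and whether counting used strand were not stated in these sources.

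Expected counts were rounded to whole numbers and tested with edgeR 4.0.16 in R 4.3.3 (filterByExpr at its default settings, TMM, quasi-likelihood F test, 1 fit of the 3 groups), with p-values adjusted by Benjamini-Hochberg across 16417 genes and a threshold of 0.05. The 2-group fits and those with 1 library left out were filtered anew. Their p-values were adjusted over the genes each of them tested, such as 16745 without 10 µM library 1. SE is |log2 fold change| over the root of F. CPM use TMM-scaled library sizes (factors 0.957 to 1.029), and CPM per kb use the exonic length in GENCODE 29, which held 23900 of the 26475 symbols. Alternatives used DESeq2 1.42.0, limma 3.58.1, other scalings and filters, a trend on transcript length and GC content, and each library left out. The fitting script was checked on simulated counts. No 2 libraries of a group agreed within sampling noise.

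The S100 genes and the other lists were chosen with earlier results of these data known. The text names all 10 S100 genes, every other S100 gene that passed the filter (S100A8, which failed it, was added after its counts were seen), and of each other list the 3 genes with the smallest p at 10 µM, of which 1 is not reported here. For the members with the largest rise and the largest fall it names the 3 most correlated genes.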

Additional observations from a re-analysis of the deposited data

How the results depend on the processing

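S100A6 and S100A1 kept their calls at 10 µM in all 21 alternatives, with log2 fold changes of 0.42 to 0.86 and -2.11 to -1.33. At 5 µM the number of members called higher was 0 with all libraries, 5 with only the 2 groups compared, 2 with the length and GC trend removed, 4 with the trend and 10 µM library 1 both left out (an alternative chosen after seeing the data), and 0 to 4 with each library left out. The number lower at 5 µM was 1 with only the 2 groups. At 10 µM the number higher (2 with all libraries) was 4 by the likelihood ratio test, 1 with only the 2 groups, 5 by DESeq2, 4 without the trend and library 1, and 1 to 4 with each library left out; the number lower was 2 without the trend, 3 without the trend and library 1, and 1 to 2 with each library left out. Between the doses the number lower was 3 without the trend and library 1, and 0 to 3 with each library left out.

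Over all genes, 722 rose and 954 fell at 5 µM, against 3051 and 3280 with only the 2 groups, 2770 and 2951 without 10 µM library 1, 1449 and 1483 without the trend, 1213 and 1463 by DESeq2, and 263 to 295 higher when a DMSO library was left out. Without the trend and library 1, 2985 rose and 2849 fell at 5 µM. At 10 µM, 2687 rose and 2947 fell, against 1645 to 1729 higher when a DMSO library was left out. The 10 µM counts were 3233 and 3236 of 16405 genes by DESeq2, and 2962 and 3153 by the likelihood ratio test. They were 2022 and 2296 with only the 2 groups, and 3854 and 4316 without 10 µM library 1. Without 10 µM library 2, 2698 rose, and without library 3, 2705. Without the trend the counts were 3501 and 3119, and without the trend and library 1 they were 4169 and 4006. Between the doses 471 were higher and 908 lower, against 1474 and 2576 without 10 µM library 1 and 1080 and 1382 by DESeq2. The counts between the doses were 114 and 221 with only the 2 groups, and 1673 and 2292 without the trend and library 1.

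Signs changed for the following fold changes, some of them near 0. S100A4 at 5 µM was -0.0012 with DESeq2-type size factors and in DESeq2, -0.0041 with no filter, -0.0017 in limma-voom, -0.0551 without the trend, -0.0015 without ribosomal RNA genes, -0.0553 without the trend and library 1, and -0.0433 to 0.0534 with each library left out. At 10 µM the ranges with each library left out were -0.33 to 0.0662 for S100A4, -0.0020 to 0.42 for S100A13 and -0.33 to 0.109 for S100B, which was 0.0031 with upper-quartile factors. Between the doses the ranges were -0.33 to 0.0657 for S100A4, -0.0435 to 0.40 for S100A6, -0.0631 to 0.23 for S100A10, -0.14 to 0.28 for S100A13, -0.20 to 0.14 for S100A16 and -0.24 to 0.20 for S100B. Without the trend S100A10 was -0.0093, S100A16 -0.11 and S100B -0.12 between the doses. Without the trend and library 1, S100A6 was -0.0129, S100A10 -0.0503, S100A13 -0.11, S100A16 -0.19 and S100B -0.27. S100B at 10 µM passed the threshold in that alternative alone (-0.42, adjusted p = 0.0223 in edgeR). The cause of these changes was not tested.

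Correlations of deviations between libraries of different groups ran from -0.0752 to 0.133 for the same replicate number and from -0.121 to 0.105 for different numbers. These values do not settle whether the replicate numbers pair the libraries. With the replicate number as a block, 0 members were called at 5 µM, 3 rose (S100A6, S100A11 and S100A2, with S100A2 at adjusted p = 0.0354 in edgeR) and 1 fell at 10 µM (2425 and 2887 of all 16417 genes rose and fell in that fit), 0 were called between the doses, and S100A4 at 5 µM was -0.0023. Depth limits S100A1 and S100P most, with 33 and 37 counts in their lowest libraries.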
